A study of Triticum monococcum with 6 samples.

Results

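A group of 7 probesets on a wheat array reads transcripts of the pathogenesis-related (PR) protein families PR1 and PR10, of a thaumatin-like protein and of chitinase II. They are 7 of the 61290 probesets in the deposited table, where a probeset is a group of short probes designed on 1 transcript or a few near-identical ones, and they were taken by their identifiers. Of these, 1 is annotated as PR1a (Ta.27327.1.S1_x_at) and 2 as PR1A/1B. The PR1A/1B probesets are told apart here by the ending of their identifiers, x_at for Ta.27762.1.S1_x_at, whose probes can also match related transcripts, and S1_at for Ta.24501.1.S1_at. PR10 is read by 2 probesets of the same cluster and transcript number, Ta.22619.1.S1_at and Ta.22619.1.S1_x_at, which are not separate genes. The thaumatin-like protein is read by Ta.959.1.S1_at and chitinase II by Ta.221.1.S1_at.

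Transcript levels were compared between the einkorn wheat mutant mvp and wild-type einkorn (Triticum monococcum, a diploid wheat of spring habit), to find the genes affected at low temperature by the deletion that mvp carries. The homozygous mvp plants descend from seed treated with a nitrogen ion beam, lack a chromosome segment that holds VRN1, PHYC and CYS among other genes, stay dwarf and do not flower, so that a difference cannot be assigned to any 1 of the deleted genes. They were picked among the progeny of heterozygous parents by their stature and by missing VRN1, PHYC and CYS transcripts. Both genotypes were raised at 20 ºC for 3 weeks in a day of 16 h light and 8 h dark, followed by 7 d in the cold at 4 ºC, so that all plants were cold-acclimated and none stayed warm. Each of the 3 mvp arrays read RNA pooled from the aerial parts of 5 plants, and each of the 3 wild-type arrays RNA pooled from 3 plants, a tissue that some labels call leaf.

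PR proteins accumulate in plants attacked by pathogens, and many of them are also made in cereals during growth in the cold. PR1 proteins are small secreted proteins widely used as markers of salicylic acid signalling in tobacco and Arabidopsis. PR10 proteins stay inside the cell and resemble ribonucleases, thaumatin-like proteins form the PR5 family and can permeabilize fungal membranes, and chitinases cut the chitin of fungal walls.

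The labels were checked on the deleted genes. VRN1, the MADS-box gene of vernalization, had log2 signals of 3.53, 4.28 and 3.94 in the mvp pools, against 10.73, 10.76 and 10.55 in the wild-type pools. PHYC, the gene of the light receptor phytochrome C, had 5.47, 5.54 and 5.21 in the mvp pools, against 9.54, 9.46 and 9.28 in the wild-type pools. Both genes were low in every mvp pool, as the plants' selection requires. The array medians lay between 5.64 and 5.66. Of the leaf genes, petC, which encodes the Rieske protein of the photosynthetic electron chain, averaged 14.08 in mvp plants and 14.07 in wild-type plants on the brighter of its 2 probesets. The 3 prime minus 5 prime signal of a control transcript is a measure of RNA integrity. It was -2.21 to -1.89 in mvp pools and -2.001 to -1.84 in wild-type pools for actin, and -2.31 to -2.005 in mvp pools and -2.05 to -1.94 in wild-type pools for GAPDH. For elongation factor 1a it was 0.51 to 0.77 in mvp pools and 0.44 to 0.74 in wild-type pools, and for ubiquitin -0.91 to -0.86 in mvp pools and -1.01 to -0.84 in wild-type pools. The actin value of -2.21 was that of mvp 1, the pool with the highest signal of all 7 defence probesets. For GAPDH mvp 1 had the highest value of the mvp pools, -2.005. Its values for elongation factor 1a and ubiquitin, 0.67 and -0.89, lay between those of the other mvp pools. The part of RNA integrity in the results was not tested.

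All 7 probesets read more transcript in mvp than in wild-type plants. Their differences in log2 signal were 2.02 to 2.45, which is 4.05- to 5.47-fold, with a median of 2.24 beside a median of -0.0019 over all 61179 probesets tested. By limma with Benjamini-Hochberg adjustment over those probesets, 7 of 7 passed an adjusted p of 0.05 with higher signal in mvp, a call that 2.06% of all probesets received. The study had listed these 7 for their change on the same arrays, so that neither this count nor the p-values below are independent evidence of their direction. In RNA from whole aerial parts, a larger share of expressing cells and more RNA per cell cannot be told apart.

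Among the PR1 probesets, PR1a had log2 signals of 9.82, 8.80 and 9.05 in the mvp pools, against 7.75, 5.90 and 6.67 in the wild-type pools. The groups did not overlap, and the wild-type pools spread more widely than the mvp pools. PR1a averaged 9.22 ± 0.53 in mvp plants and 6.77 ± 0.93 in wild-type plants (SD, n = 3 each), a limma difference of 2.45 ± 0.41 (SE; 95% interval 1.53 to 3.37; adjusted p = 0.0125).

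The PR1A/1B x_at probeset read 12.20, 11.43 and 11.17 in the mvp pools, against 9.48, 8.59 and 10.02 in the wild-type pools. The PR1A/1B S1_at probeset read 11.54, 10.93 and 10.58 in the mvp pools, against 9.08, 7.87 and 9.41 in the wild-type pools. Both placed mvp pool 1 highest and wild-type pool 2 lowest. Their differences were nearly equal, at 2.24 ± 0.34 for the x_at probeset (SE; limma adjusted p = 0.00849) and 2.23 ± 0.36 for the S1_at probeset (SE; limma adjusted p = 0.0109).

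The PR10 S1_at probeset read 10.54, 10.27 and 9.61 in the mvp pools, against 8.18, 7.12 and 8.92 in the wild-type pools. The PR10 S1_x_at probeset read 11.25, 11.01 and 10.41 in the mvp pools, against 8.91, 7.95 and 9.75 in the wild-type pools. PR10 had the narrowest gap between the groups, since the lowest mvp pool was 0.69 above wild-type pool 3 on S1_at and 0.66 above it on S1_x_at, where the other 5 probesets had gaps of 1.05 to 1.30. The differences were 2.07 ± 0.39 on S1_at (SE; limma adjusted p = 0.0217) and 2.02 ± 0.38 on S1_x_at (SE; limma adjusted p = 0.0220).

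The thaumatin-like protein read 10.89, 9.91 and 9.71 in the mvp pools, against 8.21, 6.79 and 8.42 in the wild-type pools. Every mvp pool was above every wild-type pool, and wild-type pool 2 was below the other wild-type pools. The limma difference was 2.36 ± 0.42 (SE; 95% interval 1.43 to 3.30; adjusted p = 0.0156), or 5.15-fold.

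Chitinase II read 12.56, 11.79 and 11.57 in the mvp pools, against 9.94, 8.99 and 10.28 in the wild-type pools. It varied least of the 7 within the groups and had the widest gap between them. Its limma difference was 2.24 ± 0.33 (SE; 95% interval 1.51 to 2.97; adjusted p = 0.00624), or 4.72-fold.

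**Figure D1:**
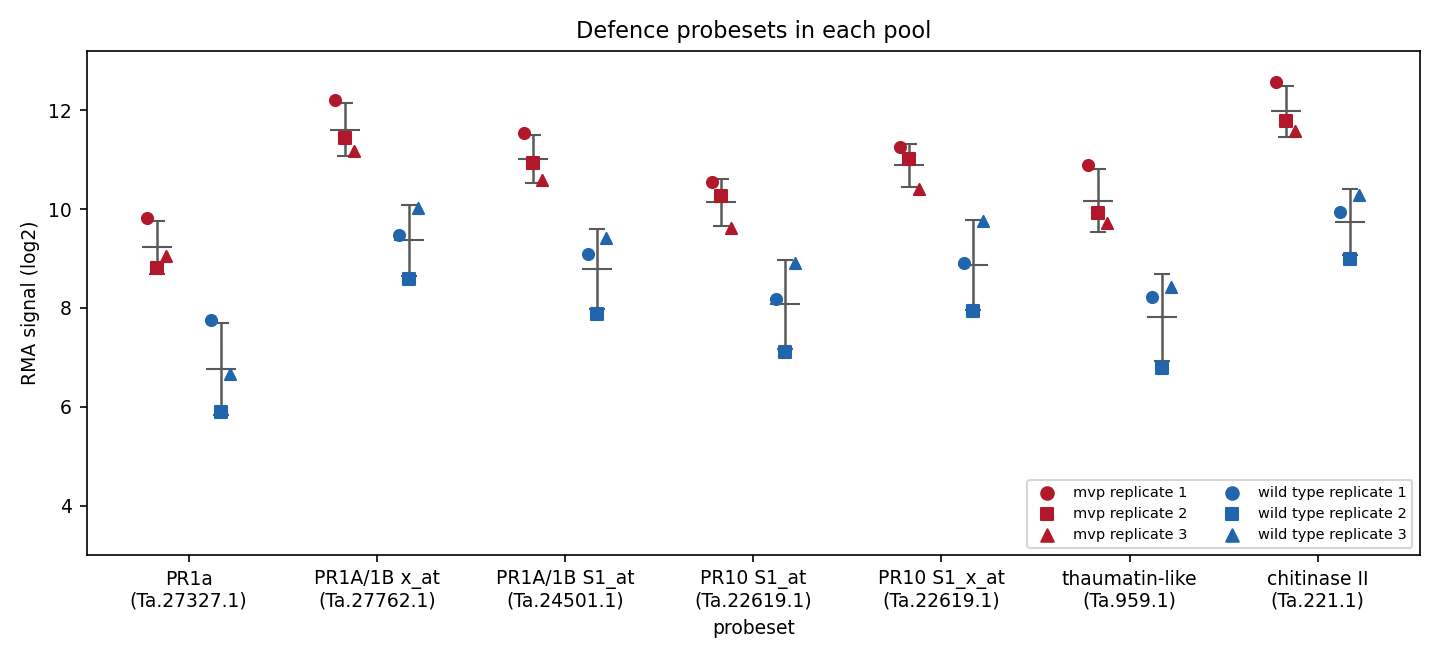
RMA signal (log2, vertical axis) of the 7 defence probesets in each pool, with mvp pools in red to the left of wild-type pools in blue, and the mean ± SD of the 3 pools in grey. The lowest mvp pool lies above the highest wild-type pool for 7 of 7 probesets, by 0.66 to 1.30.

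The groups were separated in 7 of 7 probesets, as they were, with mvp above, in 11.1% of all probesets. A fold of at least 4 together with an adjusted p under 0.05 was reached by 7 of 7 and by 0.0621% of all probesets. The study listed each of the 7 with a fold above 4 on these arrays. The fold part of this count was thus fixed by the choice of probesets and is no result about their size of change. The order of the 7 by fold was not settled. The 7 differences spanned 0.43, close to the standard error of a single one, and the signal of 1 probeset minus that of another overlapped between mvp and wild-type pools in 21 of 21 pairs.

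The pools of each group differed among themselves for these transcripts more than for nearly all others. The SD within groups was 0.60 to 0.77 for the 7 probesets, against a median of 0.11 over all probesets, and at least 99.8% of all probesets had a smaller one. The highest mvp pool was 1.80 to 2.27 times the lowest mvp pool, and the highest wild-type pool was 2.43 to 3.60 times the lowest wild-type pool. The wild-type pools also held fewer plants, so that genotype and pool size cannot be told apart as to this spread.

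The calls of limma rest on how it estimates the spread, since it draws each probeset's own value towards that of all probesets. Its standard errors for the 7 were 0.33 to 0.42, against 0.49 to 0.63 from each probeset's own spread alone. With the trend and robust options of limma's eBayes step, 0 of 7 were called and 2.6% of all probesets were called higher, with adjusted p-values of 0.0844 to 0.164 for the 7, all of which had an unadjusted p under 0.05. The folds are the same in both fits.

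The 7 probesets shared much of their variation between pools. Wild-type pool 2 was the lowest of all 6 pools in 7 of 7, as it was in 15.2% of all probesets, and it lay 1.11 to 1.52 below the mean of the other 2 wild-type pools. The pool mvp 1 was the highest of all 6 in 7 of 7, as it was in 17.7% of all probesets, and it lay 0.55 to 1.08 above the mean of the other mvp pools. In 6 of 7 probesets the mvp pools ranked 1, 2, 3 and the wild-type pools 3, 1, 2 by falling signal, a pair of rankings held by 3.11% of all probesets. As every mvp pool lay above every wild-type pool for the 7, only a wild-type pool could be lowest and only an mvp pool highest. The shares of 15.2% and 17.7% over all probesets carry no such limit, so they are not a like baseline. All these shares describe the arrays and were not tested, since the 7 probesets were measured in the same 6 RNA pools. The 2 PR10 probesets also share 1 transcript number, so that PR10 enters these counts 2 times.

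PR1a was the exception. Its mvp pools ranked 1, 3, 2 and its wild-type pools 1, 3, 2. Wild-type pool 1 lay 0.98 above the wild-type mean for PR1a, but 0.04 to 0.40 above it for the other 6 probesets, and wild-type pool 3 lay 0.11 below the mean for PR1a but 0.54 to 0.88 above it for the others.

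**Figure D2:**
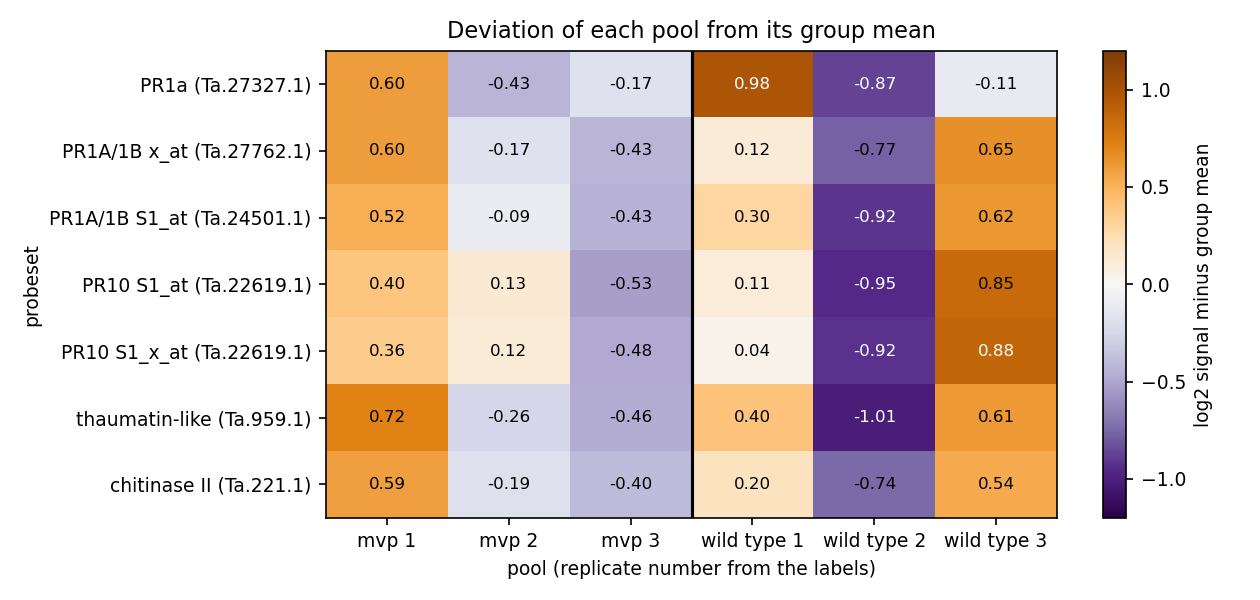
Log2 signal of each pool minus the mean of its group (colour and printed value) for the 7 probesets, with mvp pools left of the line and wild-type pools right of it. Wild-type pool 2 is the lowest wild-type pool for all 7 probesets, and PR1a departs from the others in wild-type pools 1 and 3.

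The signal of 1 probeset minus that of another shows how closely a pair moved together. For PR1A/1B x_at minus chitinase II this difference was -0.37, -0.36 and -0.40 in the mvp pools, against -0.45, -0.40 and -0.26 in the wild-type pools. The pair thus kept nearly the same distance in all 6 pools, with an SD of 0.07. Each of the 2 probesets alone had an SD of 1.34 or 1.35 over the same pools. Those 2 SDs include the difference between genotypes, which was nearly equal for both probesets and cancels on subtraction. Within groups, which leaves that difference out, the SD was 0.63 for PR1A/1B x_at and 0.60 for chitinase II. The pair of PR10 probesets had an SD of 0.05, and both were designed on 1 transcript. The 15 pairs without PR1a had SDs of 0.05 to 0.36 and the 6 pairs with PR1a had SDs of 0.45 to 0.72. For PR1a minus PR1A/1B x_at the difference was -2.38, -2.63 and -2.12 in the mvp pools, against -1.73, -2.69 and -3.35 in the wild-type pools, so that the wild-type pools set the range. As signals also depend on how well each probeset binds its transcript, only the changes in these differences can be read, not their size.

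**Figure D3:**
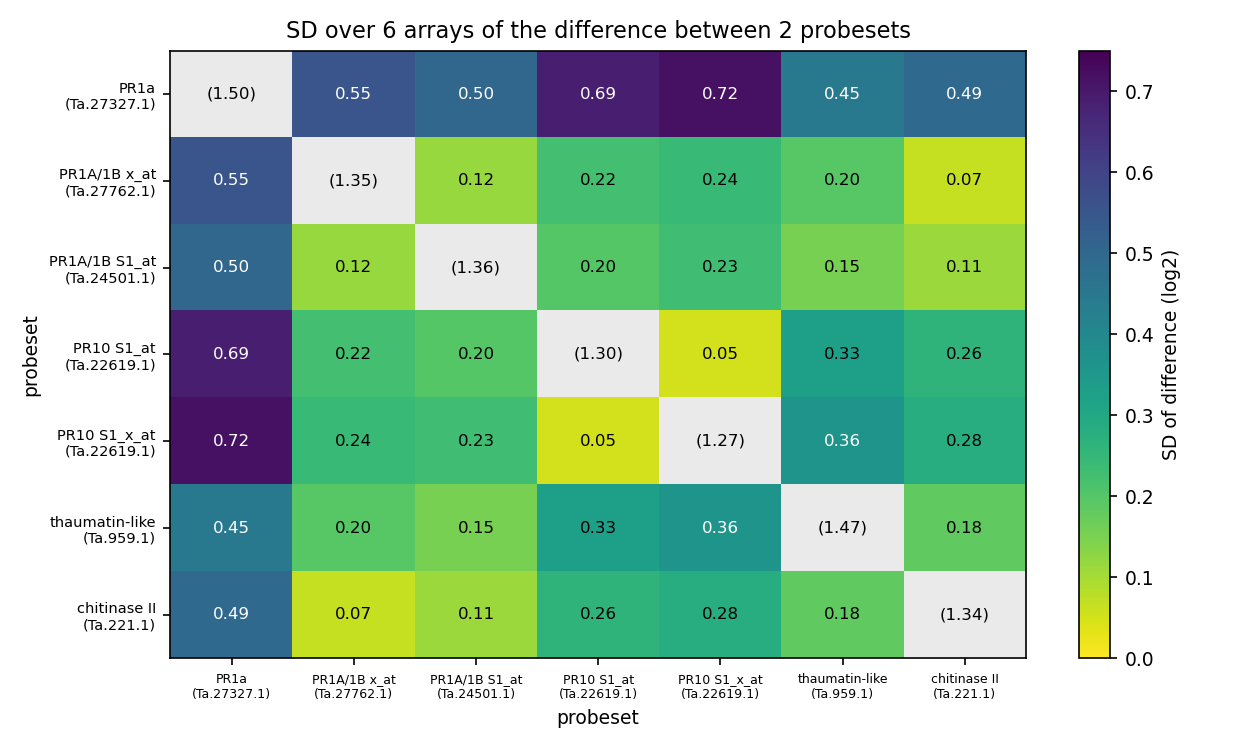
SD over the 6 arrays of the difference in log2 signal between each pair of the 7 probesets (colour and printed value), with each probeset's own SD over the 6 arrays in parentheses on the diagonal. The SDs on the diagonal include the difference between genotypes, most of which cancels in the pairs. The pairs with PR1a lie at 0.45 to 0.72 and the other pairs at 0.05 to 0.36.

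Likeness to the rest of the array was measured as the root mean square (RMS) difference between profiles over the 6 arrays. With each profile centred on its own mean, 5 or 6 of the other 6 were among the 100 nearest of 61178 probesets for every one of the 7, a likeness that the difference between genotypes shares in. With each profile centred on its group means, which takes that difference out, 5 or 6 of the other 6 were among the 100 nearest for 6 of the probesets and 0 for PR1a. For the 10 probesets nearest to the mean profile of the 7 the RMS difference was 0.14 to 0.29. The nearest is annotated as glucan endo-1,3-beta-glucosidase GII, an enzyme that cuts the glucans of fungal walls. It read 10.83, 10.35 and 9.87 in the mvp pools, against 8.69, 7.46 and 8.94 in the wild-type pools. It thus ranked the pools as 6 of the 7 did, which its choice as the nearest profile favours. The 10 also held probesets annotated as thaumatin-like protein TLP8, as another glucosidase GII and as a dirigent-like protein. The study listed the other 6 without a named function, as uncharacterized proteins, clone sequences or the product of a rice locus, and their family was not determined here. Outside the 10, 2 further listed probesets annotated as dirigent-like proteins were lower in mvp, with limma differences of -1.29 and -1.37.

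Other probesets designed on the same sequence clusters did not share the difference. There are 5 that share a cluster number with a member of the 7, and 0 of 5 were called by limma in either direction, against 3.67% of all probesets, with differences of -0.13 to 0.43 and adjusted p-values of 0.248 to 0.965. At an unadjusted p under 0.05 there was 1 of 5. Ta.27762.1.S2_at, of the PR1A/1B x_at cluster, which the platform annotation assigns to the same locus as PR1A/1B x_at, read 6.30, 6.45 and 6.41 in the mvp pools, against 6.25, 6.57 and 6.28 in the wild-type pools. Its groups overlapped, and its difference of 0.02 had a 95% interval of -0.21 to 0.24, far from the 2.24 of its partner. The 2 probesets share not only the cluster but also the transcript number, and the cause of their disagreement was not tested. The mate of the thaumatin-like protein, Ta.959.2.S1_at, read 12.81, 12.91 and 12.88 in the mvp pools, against 12.96, 13.04 and 12.97 in the wild-type pools. Every mvp pool was lower there than every wild-type pool, by a mean of 0.13 that missed the threshold (95% interval of the difference -0.29 to 0.04; limma adjusted p = 0.450).

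In the PR10 cluster the remaining probesets had low signals. The one with the highest difference read 5.50, 4.87 and 5.26 in the mvp pools, against 5.09, 4.61 and 4.64 in the wild-type pools, a difference of 0.43 with a 95% interval of 0.05 to 0.82 before adjustment and a limma adjusted p of 0.248. The other PR10 mates differed by 0.25 and 0.18, and their groups overlapped too. A cluster number groups transcripts of similar sequence and may hold different gene copies, and which of them einkorn carries was not analysed here.

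**Figure D4:**
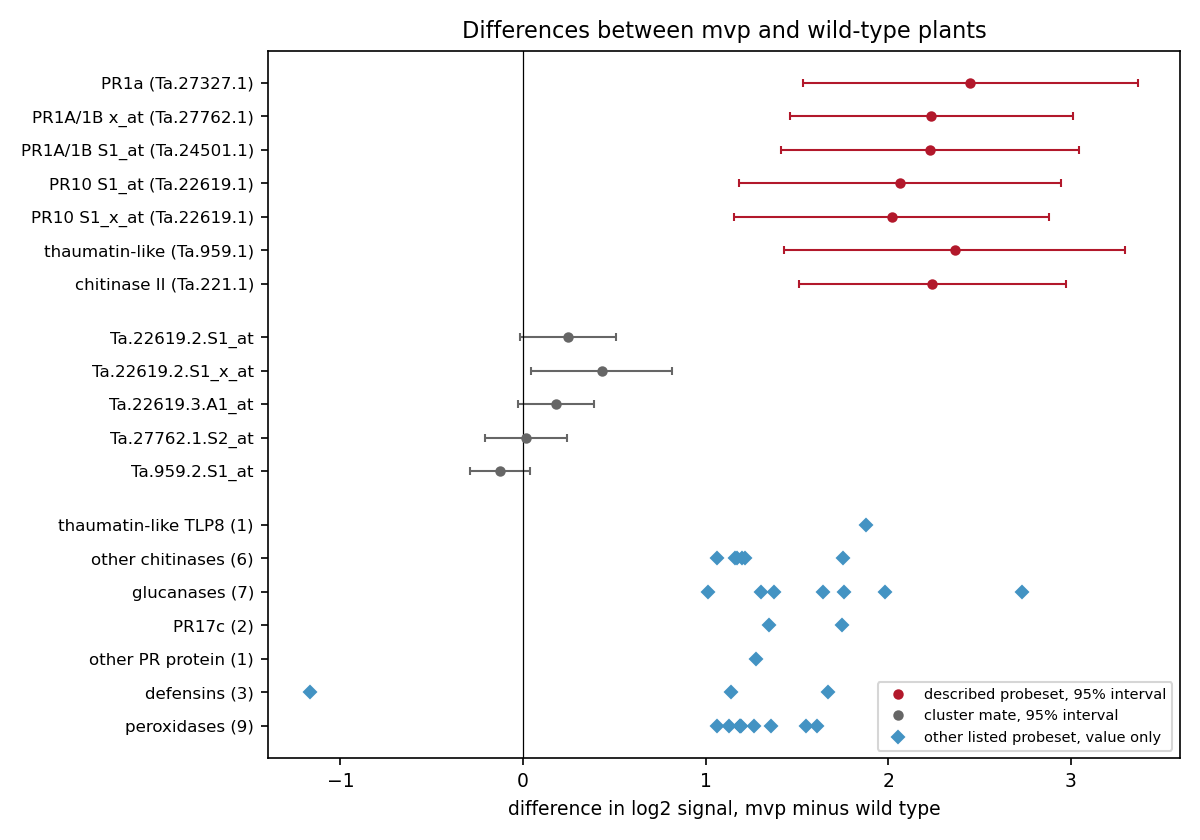
Difference in log2 signal, mvp minus wild type (horizontal axis), of the 7 probesets in red and of their 5 cluster mates in grey, each with its 95% interval, and of the 29 other listed probesets of these and related PR families as blue diamonds, grouped by family with their number in parentheses. The intervals of the 7 start at 1.16 or above, while the differences of the cluster mates lie between -0.13 and 0.43.

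The study also listed 29 probesets annotated as glucanases, chitinases, a thaumatin-like protein, PR17, defensins, peroxidases or a PR protein of no stated family, again for their change on these arrays, so that they are no independent evidence either. Of these, 28 were higher in mvp by limma and 1 was lower, with a median difference of 1.27. Glucanases, the PR2 family that cuts the beta-1,3-glucans of fungal walls, were higher in 7 of 7, by 1.01 to 2.73. The largest of these differences was that of a probeset annotated as a beta-glucanase, which averaged 9.66 in mvp plants and 6.92 in wild-type plants, more than any of the 7. The other chitinases were higher in 6 of 6, by 1.06 to 1.75, and TLP8 was higher by 1.88. Among these chitinases, 1 probeset is also annotated as chitinase II. It differed by 1.16, against 2.24 for the chitinase II probeset of the 7, and its mvp pools ranked 2, 1, 3. PR17c was higher on 2 of 2 probesets, by 1.35 and 1.75. Peroxidases, which oxidize phenolics in the cell wall, were higher in 9 of 9, by 1.06 to 1.61.

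Defensins are small peptides that act against microbes. Of the 3 probesets annotated as defensins, 2 that carry the name defensin-like protein 2 were higher in mvp, by 1.67 and 1.14. The third, annotated as a defensin, averaged 7.45 ± 0.12 in mvp plants and 8.61 ± 0.27 in wild-type plants (SD, n = 3 each), a limma difference of -1.17 (adjusted p = 0.00152). Gamma-thionin is another name for plant defensins, and 3 of 3 listed probesets with that annotation were higher in mvp, by 1.18 to 1.91.

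These gamma-thionins are among 10 listed probesets of further PR-type families that were added after their values were known. By limma 7 of the 10 were higher in mvp and 3 were lower. Thionins, peptides that damage microbial membranes, were lower in 2 of 2 probesets of 1 cluster. The one with the larger difference read 6.50, 7.81 and 7.11 in the mvp pools, against 9.02, 8.78 and 9.44 in the wild-type pools, a limma difference of -1.94 (adjusted p = 0.00669). Every mvp pool was thus below every wild-type pool. Non-specific lipid-transfer proteins, the PR14 family, were higher on 1 probeset, by 1.62, and lower on the other, with a difference of -1.01. Protease inhibitors were higher on 2 of 2 probesets, by 1.21 and 1.25, and a germin-like protein was higher by 1.12. The platform annotation names 4 more probesets as thionin genes, which the study did not list. Of these, 0 of 4 were called, against 3.67% of all probesets, with differences of -0.35 to -0.07. Their signals were low, with group means of 3.60 to 4.72 beside array medians of 5.64 to 5.66, so that the missing calls say little about thionins.

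The 29 shared the low wild-type pool 2 with the 7, but less of the rest of the pattern. Wild-type pool 2 was the lowest of the 6 pools in 26 of 29, against 15.2% of all probesets. The pool mvp 1 was the highest in 12 of 29, among them 7 of 7 glucanases and 0 of 9 peroxidases, against 17.7% of all probesets. Both rankings seen in 6 of the 7 were found in 6 of 29, against 3.11% of all probesets. Their SD within groups ran from 0.13 to 0.66, with a median of 0.36. The 3 listed probesets of lipoxygenase 2.1, an enzyme of jasmonate synthesis, were higher in mvp by 1.88 to 2.01, near the 2.02 and 2.07 of PR10. They had SDs within groups of 0.17 to 0.21, held wild-type pool 2 lowest in 3 of 3 and showed neither ranking in any of the 3. Of the 5 listed WRKY transcription factor probesets, wild-type pool 2 was lowest in 5 and mvp 1 highest in 5, with both rankings in 1. Of the 4 listed probesets of phenylalanine ammonia-lyase, wild-type pool 2 was lowest in 4, mvp 1 was highest in 0 and both rankings were found in 0. All these lists were made for change on the same arrays, nearly always with higher signal in mvp. As for the 7, this favours a wild-type pool as lowest and an mvp pool as highest. The shares over all probesets are thus not a like baseline for them either.

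A probeset annotated to cytochrome c oxidase subunit 1 of aphids, insects that feed on wheat, was also higher in mvp. It read 7.97, 6.55 and 8.05 in the mvp pools, against 5.47, 5.59 and 5.65 in the wild-type pools, a limma difference of 1.96 ± 0.33 (SE; adjusted p = 0.0125). Whether the probeset read insect RNA was not tested. Its values in mvp 3 and mvp 1 were nearly equal, at 8.05 and 7.97. Of these pools, mvp 1 held the highest signal of all 7 defence probesets and mvp 3 the lowest mvp value of 6 of them. In the wild-type pools the aphid-annotated probeset spanned 0.18, while the 7 spanned 1.28 to 1.85. Its part in the difference between genotypes was not tested.

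**Figure D5:**
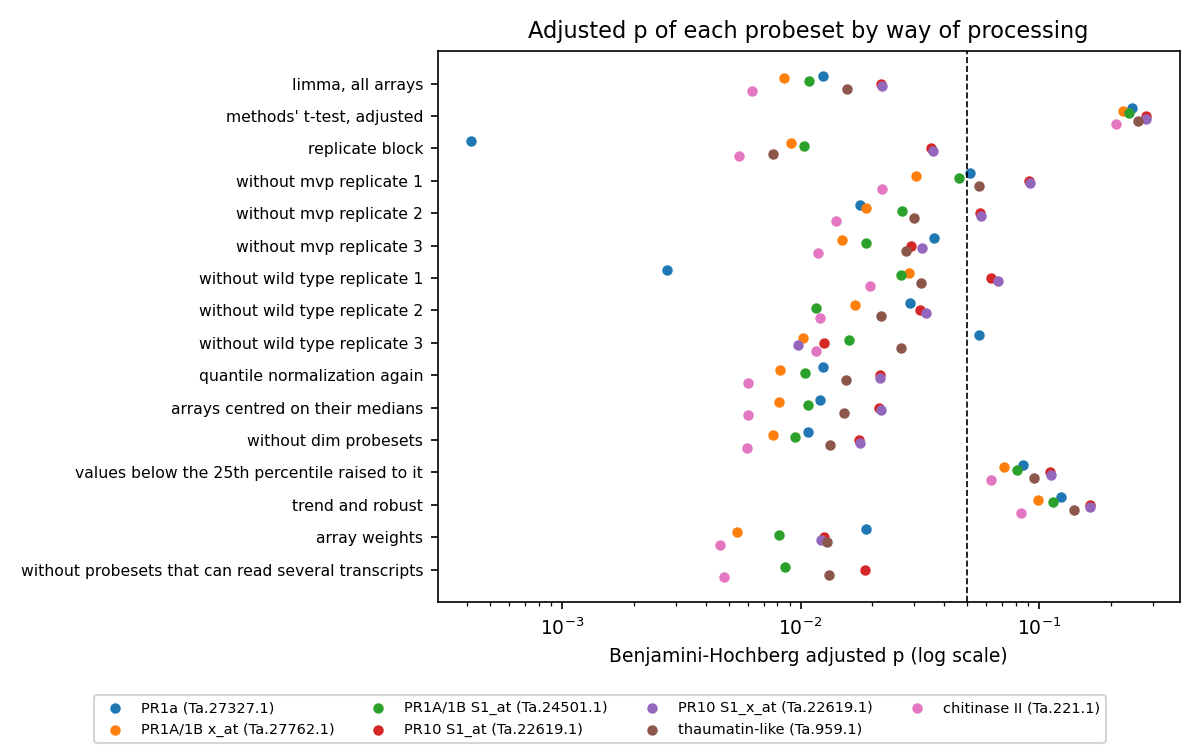
Benjamini-Hochberg adjusted p (log axis) of the 7 probesets under each way of processing, 1 row per way and 1 colour per probeset, with a dashed line at 0.05; the scaling to hybridization controls is left out. All 7 lie left of the line in limma on all arrays and right of it in 3 rows, for the methods' t-test, the raised low values and the trend and robust options.

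Single pools moved some calls. Without mvp 1, the pool with the highest values, 3 of 7 were still called, namely chitinase II and both PR1A/1B probesets, and the largest limma adjusted p was 0.0917. Both PR10 probesets also missed the threshold without mvp 2 (largest adjusted p = 0.0568) and without wild-type pool 1 (largest adjusted p = 0.0673), and PR1a missed it without wild-type pool 3 (adjusted p = 0.0560). Without wild-type pool 2, the pool with the lowest values, all 7 were called and the differences were 1.56 to 2.02, which is 2.94- to 4.04-fold. Chitinase II and both PR1A/1B probesets were called whichever of the 6 pools was left out. The share of all probesets called higher was 1.06% without mvp 1, 1.61% without mvp 2, 1.31% without mvp 3, 1.07% without wild-type pool 1, 1.11% without wild-type pool 2 and 1.35% without wild-type pool 3. Among the other ways of processing whose counts are given, that share was 0.0212% for the methods' t-test after adjustment, 1.74% with a replicate block, 1.48% with low values raised and 1.62% without probesets that can read several transcripts.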

How the data were processed

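The authors scanned Affymetrix wheat genome arrays, ran robust multiarray averaging (RMA) in FlexArray and deposited log2 values, 1 per probeset and array. RMA corrects the background, gives arrays a common distribution and summarizes probes, and these steps could not be changed here. Groups came from the labels. The number of arrays limits the precision, and no detection calls come with the values. No array duplicated another (SD of differences within a group 0.185 to 0.201). After 111 control probesets were left out, 61179 were fitted by the lmFit and eBayes functions of limma (version 3.58.1, under R 4.3.3), as mvp minus wild type, and p-values were adjusted by Benjamini-Hochberg and called under 0.05. Fold is 2 to the power of the log2 difference. The steps were tested on simulated data. Tables used pandas 2.3.3 and plots matplotlib 3.10.9, in Python 3.11.15.

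The 7 probesets, the lists and the tests were chosen with earlier results of these data known. Named besides them are the deleted genes, cluster mates (same cluster number in the identifier), 29 listed probesets of PR families, the 10 nearest profiles, the aphid probeset and, picked after their values were seen, lipoxygenase 2.1, the peroxidases, petC, the thionins and the other added PR-type probesets. The WRKY, phenylalanine ammonia-lyase and further dirigent-like probesets were also picked after their values were seen. Names are the study's annotations, many of them matches to other species, except petC and 4 thionin probesets, named by the platform annotation. That annotation paired 1273 probesets with a symbol, mostly locus numbers, and 0 matched the defence or leaf names searched, which held neither thionin symbols nor petC. Identifiers ending in x_at, s_at or a_at mark probesets that can read related transcripts as well. The array was designed on hexaploid wheat. The p-values measure the spread between pools, not plants. No scan date or slide was given in the sources used here, so no batch was tested. Alternatives were the methods' t-test (the 2-group form of the ANOVA they name), a replicate block, each array left out, 3 other scalings, a filter and a floor on low values, trend and robust options, array weights, leaving out x_at, s_at and a_at probesets, and fold thresholds.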

Additional observations from a re-analysis of the deposited data

How the results depend on the processing

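The folds of the 7 probesets kept their direction under every alternative run, and the median difference stayed between 1.85 and 2.51. The calls depended on how the spread was estimated. Of the 7, 0 were called with the methods' t-test after adjustment (adjusted p = 0.210 to 0.281, with 7 of 7 under 0.05 before adjustment), 0 with the trend and robust options (0.0844 to 0.164) and 0 with a floor at each array's 25th percentile (0.0630 to 0.112). That last setting left the folds of the 7 as they were. Their limma standard errors were 0.41 to 0.53 with the floor, against 0.33 to 0.42 without it, and why they rose was not tested. Of the 29 other listed PR probesets, 28 were called higher in limma on all arrays, 0 with the methods' t-test, 17 with trend and robust, 14 with the floor and 1 with a fold of at least 4. Without probesets that can read several transcripts, 4 of the 4 left among the 7 were called, and 11 of the 12 left among the other listed PR probesets. Leaving out 1 array in turn gave 3 to 7 calls among the 7 and 17 to 27 among the 29, both lowest without mvp 1. The cluster mates gave 0 calls under the alternatives run, which tested 5 of them, but 2 without dim probesets and 4 without probesets that can read several transcripts.

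The replicate numbers do not pair the pools (correlations of deviations 0.06, -0.03 and -0.04 over probesets). With the replicate block, 7 of the 7 were called (adjusted p = 0.000416 to 0.0359), with a median difference of 2.24, and 25 of the other listed PR probesets. Over all probesets, limma called 1260 higher and 987 lower, against 872 higher and 1530 lower after scaling to the hybridization controls, where the 7 were 1.95 to 2.38 higher in mvp. That scaling gave the 7 limma standard errors of 0.18 to 0.21, against 0.33 to 0.42 in limma on all arrays. Its estimate of the spread is thus not a like one, so its counts cannot be set beside the others and its adjusted p-values are not given. Over all probesets, the methods' t-test called 13 higher and 20 lower after adjustment.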
